A study of Mus musculus with 4 samples.

Results

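MHC class I molecules and the machinery that loads them were examined in TCRαβ+CD8αα+ intestinal intraepithelial lymphocytes (IELs). The set was written out by name as 33 of the 19339 genes listed, by a rule that holds no measured value. It held 19 class I genes (heavy chains of the H2-K, H2-D, H2-Q, H2-T and H2-M regions, the class I-like genes *Cd1d1* and *Mr1*, and *B2m*) and 14 antigen processing genes, which are described apart. Values for 32 of the 33 genes were used, since no level of *H2-Q6* was analysed here.

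A class I molecule consists of a heavy chain, β2-microglobulin and a short peptide. The peptides are cut by the proteasome, whose immune form carries the inducible subunits encoded by *Psmb8*, *Psmb9* and *Psmb10*, are carried into the endoplasmic reticulum by the TAP transporter, and are fitted to the heavy chain by tapasin and chaperones. Class I molecules show these peptides to CD8 T cells. Several non-classical heavy chains instead engage receptors of innate-like lymphocytes, and IELs that carry the CD8αα homodimer live among epithelial cells that display such ligands.

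The 4 libraries came from C57BL/6 mice with loxP-flanked *Kdm6b*, which encodes a demethylase of histone H3 lysine 27. The 2 control libraries (replicates 1 and 3) were from Kdm6b fl/fl mice, and the other 2 (replicates 1 and 3) from Kdm6b fl/fl-CD4Cre mice, in which *Cre* is driven in T cells of the αβ lineage from a late double-negative thymocyte stage. Each library held RNA of small intestinal CD45+CD4−TCRβ+CD8α+CD8β− cells pooled from 3 mice of a genotype, and the ages of the mice were not given in the sources used here. The values are FPKM, fragment counts scaled for transcript length and library depth.

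*Kdm6b* itself (Entrez 216850) was at 16.5 and 16.01 FPKM in control replicates 1 and 3. It was at 18.24 and 11.07 FPKM in the libraries labelled *Kdm6b*-deficient. Only replicate 3 was below the controls, so the gene total went against the label of replicate 1, although the value covers the whole gene and a transcript that lacks only the floxed exons would still be counted. Those libraries are therefore named as labelled.

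The gate was checked against marker genes. All 12 T cell markers were above 0. Their summed level was 26509.6 and 18181.4 FPKM in the controls and 17315.8 and 13362.3 in the libraries labelled *Kdm6b*-deficient. Most of it came from the granzyme genes *Gzma* (8836.87 to 17390.5 FPKM) and *Gzmb* (1279.45 to 3378.17 FPKM). The paper reports lower *Gzmb* in Kdm6b-deficient cells, so this sum is not a measure of T cell content alone. All 24 epithelial markers were above 0 in every library. Their summed level was 2296.06 and 6730.58 FPKM in control replicates 1 and 3. It was 8436.97 and 12755.7 FPKM in replicates 1 and 3 labelled *Kdm6b*-deficient, up to 5.56 times the lowest library. *Reg3g* alone gave 1975.59 FPKM of the sum in control replicate 3 and 3974.13 in replicate 1 labelled *Kdm6b*-deficient. By the mean log2(FPKM + 1) of the 24 markers these 2 libraries stood in the other order, at 6.72 and 6.64. The groups overlapped for 19 of the 24 markers (63.0% of all genes tested). *Cd8b1*, outside the gate, was at 0 to 1.64 FPKM, whereas *Cd4* was at 30.55 and 10.13 FPKM in the controls and at 30.47 and 3.17 FPKM in the others. Epithelial and lymphoid cells both express class I genes, and the part of the epithelial RNA in the results below was not tested. In such bulk RNA, fewer cells of a type and less RNA per cell cannot be told apart.

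Promoters of 5 class I genes are shown because κB, interferon response and CCAAT elements are the textbook elements of class I promoters. Each run is the 180 bases before a transcription start of the RefSeq annotation of GRCm38.p6, 5′ to 3′ on the strand of the gene. The windows are chr17:34000348-34000527 for *H2-K1* (minus strand, 1 of its 2 listed starts), chr17:35262914-35263093 for *H2-D1*, chr17:35438975-35439154 for *H2-Q7*, chr17:36032702-36032881 for *H2-T23* (minus strand) and chr2:122147507-122147686 for *B2m*. In the first 3 runs, capitals mark a κB motif (GGGG followed directly by ATTCCC), the letters TGACGC or TGACGT, and CCAAT. In the other 2 they mark an interferon-stimulated response element (ISRE, here GAAA, any 2 letters and GAAA) and CCAAT, each on either strand.
H2-K1: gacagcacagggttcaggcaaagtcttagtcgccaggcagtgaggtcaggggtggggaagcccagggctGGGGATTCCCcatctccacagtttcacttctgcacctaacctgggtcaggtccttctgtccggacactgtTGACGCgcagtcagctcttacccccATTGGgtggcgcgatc
H2-D1: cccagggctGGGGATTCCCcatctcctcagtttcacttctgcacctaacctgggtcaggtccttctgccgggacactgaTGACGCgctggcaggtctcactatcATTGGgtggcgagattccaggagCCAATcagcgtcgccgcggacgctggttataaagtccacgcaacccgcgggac
H2-Q7: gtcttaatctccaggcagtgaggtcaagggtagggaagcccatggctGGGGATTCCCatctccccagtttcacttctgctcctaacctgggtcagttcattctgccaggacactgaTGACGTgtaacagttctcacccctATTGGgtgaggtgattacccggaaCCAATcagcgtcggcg
H2-T23: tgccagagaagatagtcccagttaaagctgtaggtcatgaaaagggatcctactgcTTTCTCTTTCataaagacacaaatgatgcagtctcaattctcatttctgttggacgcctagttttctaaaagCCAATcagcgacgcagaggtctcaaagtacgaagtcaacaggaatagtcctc
B2m: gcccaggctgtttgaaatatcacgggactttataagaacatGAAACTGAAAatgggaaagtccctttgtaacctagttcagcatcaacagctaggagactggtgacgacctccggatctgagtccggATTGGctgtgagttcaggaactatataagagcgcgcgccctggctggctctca

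The κB motif lay 102 to 171 bases before the start in the runs above and stood in 0.107% (35) of 32851 RefSeq promoters of 300 bases (250 before and 50 after the start). Of the 24 genes of the set with such a promoter it was in those of *H2-K1*, *H2-D1*, *H2-Q6* and *H2-Q7*, which are near-copies of each other and do not count as independent cases. The ISRE letters stood in 3.44% of all promoters and in those of *H2-T22*, *H2-T23*, *B2m*, *Psme1* and *Erap1*. CCAAT was in 11 of the 13 class I promoters, against 37.4% of all promoters. TGACGC (7.4% of all promoters) was found in 6 genes of the set and TGACGT (7.51%) in 4. Of the other letters searched on both strands, the core of the interferon regulatory factor site (AA, any 2 letters, GAAA), which lies within every ISRE match, stood in 23.9% of all promoters and in 13 of 13 class I promoters. The ISRE followed by C (0.819%) was found for *H2-T22*, the looser κB form GGGA, any letter, TTCC (1.68%) for *H2-Q4* and *H2-M2*, and TTC, any 3 letters, GAA (8.3%) for *H2-M3* and *Psmb8*. A match describes letters and does not show binding.

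*B2m*, the light chain shared by nearly all class I molecules (chr2:122147687-122153082), stood at 5107.84 and 4404.94 FPKM in the controls and at 4536.15 and 3021.79 FPKM in the libraries labelled *Kdm6b*-deficient. Replicate 1 of the latter lay between the controls. The log2 fold change on the log2(FPKM + 1) scale was −0.36 ± 0.36 (SE, 2 libraries a group), and limma gave an adjusted p of 0.822. Together *B2m* and the 15 heavy chains of the set with values made up 1.27% and 0.978% of all FPKM in the controls and 1.04% and 0.653% in the others.

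*H2-K1*, a classical heavy chain that presents peptides to CD8 T cells (chr17:33996012-34000619), had the highest listed level of the heavy chains. Its levels of 1442.29 and 1023.42 FPKM in the controls overlapped the 1167.3 and 802.31 FPKM in the libraries labelled *Kdm6b*-deficient (log2 fold change −0.33 ± 0.31). It supplied 63.3% to 66.9% of the summed FPKM of the 15 heavy chains of the set. The share was 53.2% to 56.9% with *H2-Q8* and *H2-Q9* added, which lie outside the set. These shares take *H2-D1* at its low listed values, and whether fragments of *H2-D1* were assigned to other copies was not tested. *H2-D1*, the other classical heavy chain (chr17:35263094-35267497), was listed at 9.37 FPKM in control replicate 1, at 0 in control replicate 3, and at 21.77 and 6.47 FPKM in the others. The groups overlapped, and its log2 fold change of 2.02 ± 1.16 dropped to 0.33 without control replicate 3. *LOC547349*, a further class I gene of RefSeq, was listed at 0 in both controls and at 6.55 and 35.07 FPKM in replicates 1 and 3 labelled *Kdm6b*-deficient. It passed the expression minimum only through those libraries.

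Near-identical copies limit how far these values can be assigned to 1 gene. Of the 50-base windows of an *H2-D1* transcript, 12.0% occurred letter for letter in another of 15 heavy chain genes. The share was 8.79% for *H2-K1* and 41.2% for *H2-T22*, mostly shared with *H2-T10*, and 19.3% of the windows of *H2-Q7* occurred in *H2-Q6*. It was 0.576% for *H2-M3* and 1.27% for *H2-T24*. Fragments from shared stretches were divided between copies by RSEM, so the values of heavy chains that share windows are uncertain. *LOC547349*, *H2-Q8* and *H2-Q9* were not among the genes compared, so how far they share sequence was not measured.

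Of the abundant non-classical heavy chains, *H2-T23* and *H2-Q7* were lower in both libraries labelled *Kdm6b*-deficient. *H2-T23* encodes Qa-1, which displays leader peptides of other class I chains to the inhibitory receptor pair NKG2A and CD94 (chr17:36029977-36032701). It was at 391.78 and 285.15 FPKM in the controls and at 255.66 and 153.42 FPKM in the libraries labelled *Kdm6b*-deficient. Both of the latter lay below both controls, and the log2 fold change was −0.75 ± 0.31 (limma adjusted p = 0.755, unadjusted p = 0.0543). Without replicate 3 labelled *Kdm6b*-deficient it was −0.39, and with the mean epithelial marker level as a covariate −0.21. The gap from control replicate 3 to the next library down was small, a log2 difference of −0.16.

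*H2-Q7* encodes the Qa-2 antigen (chr17:35439140-35443773). Its 205.55 and 147.07 FPKM in the controls stood above the 115.82 and 78.61 FPKM in the libraries labelled *Kdm6b*-deficient. The log2 fold change was −0.86 ± 0.27 (limma adjusted p = 0.755, unadjusted p = 0.0220), with a difference of −0.82 between the replicates numbered 1 and −0.90 between those numbered 3. With the epithelial covariate the log2 fold change was −0.38. *H2-Q8* and *H2-Q9* are its relatives by name. The annotation lists them under chromosome 17 at 1642938-1675706 and 1714853-1719494, far from the position of *H2-Q7*. It likewise lists *LOC547349* at 87872-91836. Whether these entries are alternate copies of genes listed elsewhere was not checked. *H2-Q8* was at 284.07 and 229.77 FPKM in the controls and at 213.74 and 135.48 FPKM in the others (log2 fold change −0.58 ± 0.27), whereas *H2-Q9* overlapped between the groups (130.85 and 77.05 FPKM in the controls, 94.15 and 78.36 in the others). The sum of the 3 genes was 620 and 454 FPKM in the controls and 424 and 292 FPKM in the others, without overlap.

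*H2-T22*, a ligand of some γδ T cell receptors (chr17:36037128-36042742), was at 108.57 and 90.58 FPKM in the controls and at 95.02 and 50.49 FPKM in the libraries labelled *Kdm6b*-deficient, and the groups overlapped (log2 fold change −0.51 ± 0.32). *H2-K1*, *H2-Q7*, *H2-T22*, *H2-T23* and *B2m* are the 5 of the 19 class I genes with a mean of at least 50 FPKM, a division made after their values were seen. All 5 had a negative log2 fold change with a median of −0.51, and all 5 were highest in control replicate 1 and lowest in replicate 3 labelled *Kdm6b*-deficient. Of all genes tested, 49.9% had a negative value, 30.5% were highest in that control and 32.5% were lowest in that replicate 3. The order did not extend to *H2-Q9*, outside the set, which was lowest in control replicate 3. The T cell markers had a median of −0.52, and 11 of 12 were lowest in that same library. Scaled to the T cell genes *Cd3d*, *Cd3e*, *Cd3g* and *Ptprc*, the differences were −0.49 for *H2-Q7*, −0.38 for *H2-T23*, −0.14 for *H2-T22*, 0.05 for *H2-K1* and 0.02 for *B2m*, while the median over all genes moved to 0.34. Without replicate 3 labelled *Kdm6b*-deficient, the differences were −0.06 for *H2-K1*, *H2-T22* and *B2m* alike, and without replicate 1 they were −0.60, −0.96 and −0.65. With the epithelial covariate they were 0.15, −0.0068 and −0.0058.

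**Figure D1:**
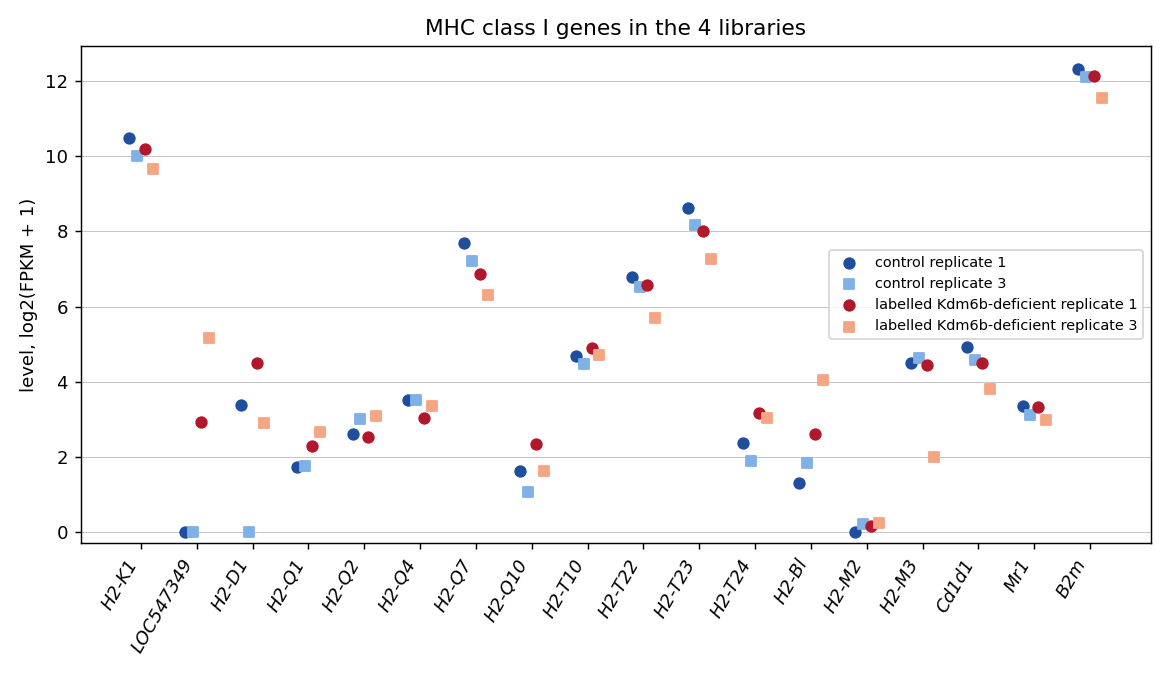
Level of each class I gene in each of the 4 libraries, as log2(FPKM + 1); blue points are controls, red and orange points the libraries labelled *Kdm6b*-deficient, circles replicate 1 and squares replicate 3. *B2m*, *H2-K1*, *H2-T23* and *H2-Q7* stand highest, each with its lowest point in replicate 3 labelled *Kdm6b*-deficient, while *LOC547349* is at 0 in both controls.

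The scarce heavy chains went in either direction. *H2-T24*, a heavy chain of the T region, was at 4.15 and 2.68 FPKM in the controls and at 8.06 and 7.19 FPKM in the libraries labelled *Kdm6b*-deficient (log2 fold change 0.98 ± 0.32, limma adjusted p = 0.755, unadjusted p = 0.0229). *H2-Bl*, a transcribed pseudogene in the annotation, was at 1.48 and 2.54 FPKM against 5.05 and 15.66 FPKM. Its log2 fold change was 1.76 ± 0.54 (limma adjusted p = 0.755, unadjusted p = 0.0201), but 1.03 without replicate 3 labelled *Kdm6b*-deficient and 0.89 with the mean epithelial marker level as a covariate. In both genes the 2 groups did not overlap.

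*H2-M3*, which presents N-formylated peptides (chr17:37270234-37274485), was at 21.77 and 23.81 FPKM in the controls, at 20.66 FPKM in replicate 1 and at 3.0 FPKM in replicate 3 labelled *Kdm6b*-deficient. The log2 fold change of −1.35 ± 0.77 rested on replicate 3, since without it the value was −0.13. *Cd1d1*, which presents lipids to NKT cells (chr3:86995834-87012358), was at 29.52 and 22.67 FPKM in the controls and at 21.61 and 13.05 FPKM in the others (log2 fold change −0.59 ± 0.31). That value was −0.24 when scaled to the T cell genes, −0.12 with the epithelial covariate, −0.94 without replicate 1 and −0.25 without replicate 3 labelled *Kdm6b*-deficient. *Mr1*, which presents vitamin B metabolites to MAIT cells (chr1:155127874-155146814), was at 9.29 and 7.6 FPKM in the controls and at 9.03 and 6.87 FPKM in the others, with overlapping groups.

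In the Q region, *H2-Q1* was at 2.34 and 2.41 FPKM in the controls and at 3.93 and 5.33 FPKM in the libraries labelled *Kdm6b*-deficient. *H2-Q4* went the other way, from 10.48 and 10.45 FPKM to 7.17 and 9.2 FPKM, though its fitted difference of −0.33 became 0.01 when scaled to the T cell genes. *H2-Q2* (4.8 to 7.48 FPKM) had overlapping groups. *H2-Q10*, which encodes a class I chain secreted mainly by the liver, was at 1.09 to 4.09 FPKM, and its groups were apart by only 0.01 FPKM. *H2-T10*, a pseudogene in this annotation, was at 21.11 to 28.91 FPKM with a log2 fold change of 0.22 ± 0.21, and *H2-M2* stayed at or below 0.18 FPKM and was not tested.

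Over the class I genes, 17 of the 18 with values passed the expression minimum. One of these, *LOC547349*, did so only through the libraries where it is high and is left out of the counts that follow. In 5 of the other 16 both libraries labelled *Kdm6b*-deficient were above both controls (18.4% of the 12009 genes tested were) and in 5 both were below (18.6% of genes tested). The fitted log2 fold change was above 1 for *H2-D1* and *H2-Bl* (6.2% of genes tested) and below −1 for *H2-M3* (0.441% of genes tested). The median log2 fold change was −0.21, or −0.08 with *LOC547349*, beside 0.000965 over all genes tested, and with *LOC547349* it was 0.25 when scaled to the T cell genes, where the median of all genes was 0.34. By limma none passed an adjusted p of 0.05, with values of 0.755 and above, as none did among all genes tested (0.0%). Leaving *LOC547349* aside, *H2-Q7*, *H2-T24* and *H2-Bl* had an unadjusted p under 0.05, 3 of 16, against 5.35% (642) of the genes tested.

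Among the processing genes, as among all genes tested, the groups mostly differed by less than the controls did from each other. All 14 passed the expression minimum, none had a log2 fold change beyond 1 in either direction (6.64% of genes tested did), and the groups overlapped in 12 (63.0% of genes tested did). The median log2 fold change was −0.07, and 0.30 when scaled to the T cell genes. In 10 of the 14 the gap between the 2 controls was larger than the difference of the groups, as it was for 56.2% of genes tested. None passed the limma test (adjusted p from 0.755 to 0.986), and none had an unadjusted p under 0.05.

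The immunoproteasome was present in every library. *Psmb8* (chr17:34198195-34201454), a catalytic subunit, was at 421.21 and 361.02 FPKM in the controls and at 406.14 and 240.66 FPKM in the libraries labelled *Kdm6b*-deficient. *Psmb9* (chr17:34182030-34187330), the second catalytic subunit, ranged from 170.96 to 218.18 FPKM over the 4 libraries and *Psmb10*, the third, from 141.8 to 163.82 FPKM. Their log2 fold changes were −0.32 ± 0.29, −0.12 ± 0.19 and 0.07 ± 0.17, and for each the groups overlapped. The value for *Psmb8* was −0.69 without replicate 1 and 0.06 without replicate 3 labelled *Kdm6b*-deficient. *Psme1* and *Psme2*, which form the proteasome activator that interferon induces, ranged from 307.12 to 330.49 FPKM and from 413.64 to 515.65 FPKM.

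Each inducible subunit takes the place of a constitutive one, so their ratio was formed within each library. *Psmb9* exceeded its partner *Psmb6* by 18.7 and 16.3 times in the controls and by 17.3 and 9.08 times in replicates 1 and 3 labelled *Kdm6b*-deficient. *Psmb8* exceeded *Psmb5* by 2.62 and 2.28 times in the controls and by 3.20 and 1.62 times in the others. *Psmb6* itself was listed at only 11.38 to 18.82 FPKM, whereas the other 13 α and β subunits of the constitutive core ranged from 127.02 to 414.51 FPKM, so the size of its ratio rests on that low value. *Psmb10* was below *Psmb7*, at ratios of 0.709 to 0.798. In all 3 pairs the groups overlapped (2-sided exact permutation p = 0.667, 1 and 0.667 in this order, where 2 against 2 libraries cannot go below 0.333).

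The TAP transporter carries peptides into the endoplasmic reticulum. *Tap1* (chr17:34187556-34197225) was at 71.62 and 52.02 FPKM in the controls and at 60.44 and 36.54 FPKM in the libraries labelled *Kdm6b*-deficient, with overlapping groups. *Tap2* (chr17:34204479-34216321), its partner in the transporter, was at 110.49 and 77.28 FPKM against 76.06 and 55.56 FPKM. The 2 groups of *Tap2* were thus barely apart, with a log2 fold change of −0.50 ± 0.26. It was −0.13 when scaled to the T cell genes, −0.05 with the mean epithelial marker level as a covariate, −0.25 without control replicate 1 and −0.28 without replicate 3 labelled *Kdm6b*-deficient. *Tapbp* (tapasin), which bridges the transporter and the heavy chain, ranged from 176.94 to 263.33 FPKM, and the tapasin relative *Tapbpl* from 61.73 to 114.54 FPKM, both with overlapping groups.

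The chaperones and the trimming peptidase differed by less than their standard errors. *Calr*, *Canx* and *Pdia3*, which fold and hold the heavy chain, had log2 fold changes of 0.05 ± 0.21, 0.14 ± 0.20 and 0.09 ± 0.20. *Erap1*, the peptidase that trims peptides in the endoplasmic reticulum, was at 47.36 to 59.1 FPKM with a log2 fold change of −0.03 ± 0.19. All 4 were unlike *B2m* in that control replicate 1 was not their highest library. *Nlrc5*, the transactivator of class I genes (chr8:94434335-94527272), was at 20.19 and 14.23 FPKM in the controls and at 12.73 and 10.48 FPKM in the libraries labelled *Kdm6b*-deficient. Its groups did not overlap, and the log2 fold change was −0.52 ± 0.27 (limma adjusted p = 0.755). It was −0.17 when scaled to the T cell genes, −0.16 with the epithelial covariate and −0.28 without control replicate 1.

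**Figure D2:**
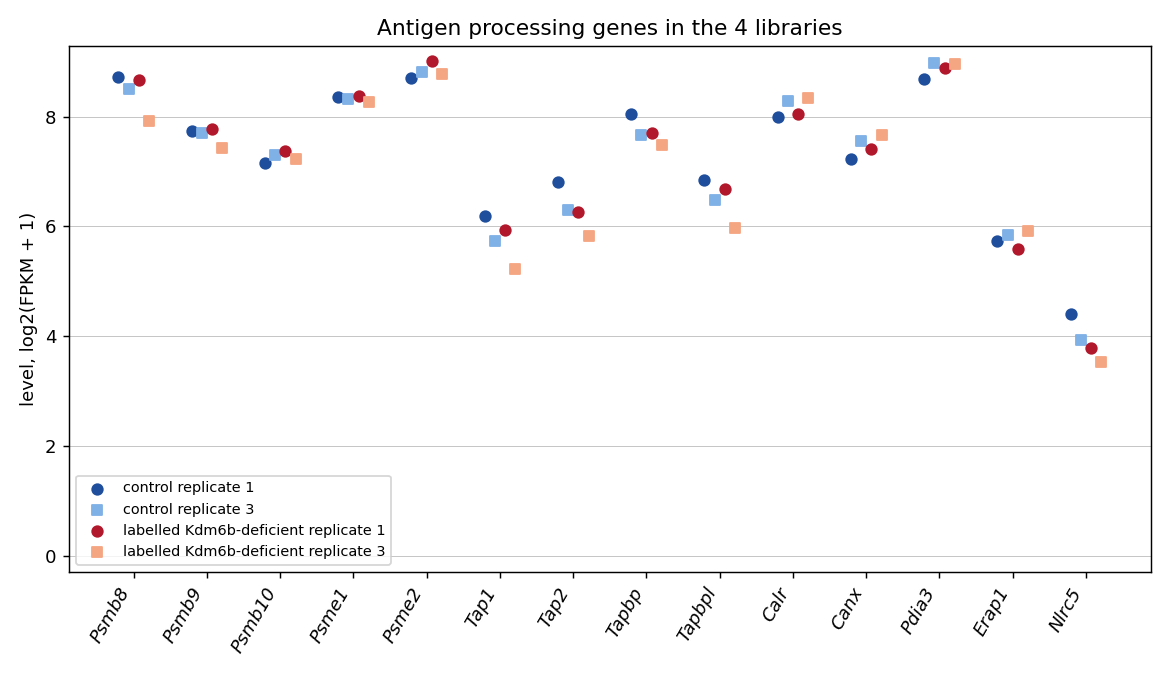
Level of each processing gene in each of the 4 libraries, as log2(FPKM + 1), with colours and shapes as in the plot of class I levels. The points of most genes intermingle, and only *Tap2* and *Nlrc5* have both libraries labelled *Kdm6b*-deficient below both controls.

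Ratios within a library do not depend on its scaling. The summed FPKM of the 15 heavy chains of the set was 0.437 and 0.367 times that of *B2m* in the controls and 0.385 and 0.398 times in the libraries labelled *Kdm6b*-deficient, with overlap (2-sided exact permutation p = 1). With *H2-Q8* and *H2-Q9* added, a choice made after seeing the data, the ratio was 0.518 and 0.437 in the controls and 0.453 and 0.468 in the others. The following ratios were picked after the values were seen, so no p is given for them. *H2-K1* to *B2m* ran from 0.232 to 0.282, with both extremes in controls. *H2-T23* to *B2m* was 0.0767 and 0.0647 in the controls and 0.0564 and 0.0508 in the others. *H2-Q7* to *B2m* was 0.0402 and 0.0334 in the controls and 0.0255 and 0.0260 in the others. For these last ratios both libraries labelled *Kdm6b*-deficient lay below both controls. *B2m* relative to the summed T cell genes *Cd3d*, *Cd3e*, *Cd3g* and *Ptprc* was between 1.48 and 1.62 in all 4 libraries, with the lowest value in control replicate 1 and the highest in replicate 1 labelled *Kdm6b*-deficient.

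**Figure D3:**
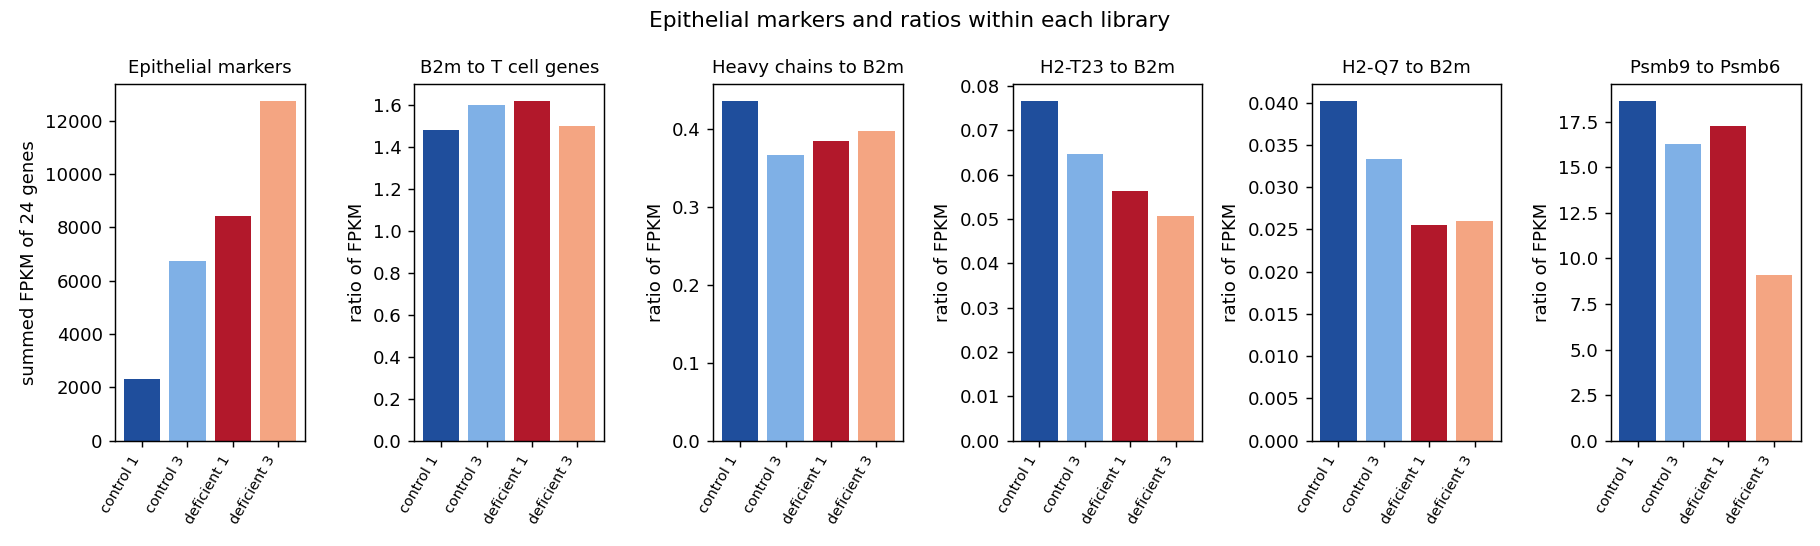
Bars give, for each library, the summed FPKM of 24 epithelial markers and 5 ratios of FPKM, with bars from 0 and labelled *Kdm6b*-deficient written as deficient. The epithelial sum is lowest in control replicate 1 and highest in replicate 3 labelled *Kdm6b*-deficient, the ratio of *B2m* to T cell genes stays between 1.48 and 1.62, and the ratios of *H2-T23* and *H2-Q7* to *B2m* are lower in both libraries labelled *Kdm6b*-deficient.

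The comparison also depended on which libraries were set against each other. For the 5 abundant class I genes the median difference was −0.30 between the replicates numbered 1 and −0.83 between those numbered 3. Between replicate 1 labelled *Kdm6b*-deficient and control replicate 3, the libraries nearest in epithelial sum, it was 0.04. For *H2-Q7* that last difference was −0.34, for *H2-T23* −0.16 and for *B2m* 0.04. For the processing genes the 3 medians were −0.02, −0.13 and 0.05.

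**Figure D4:**
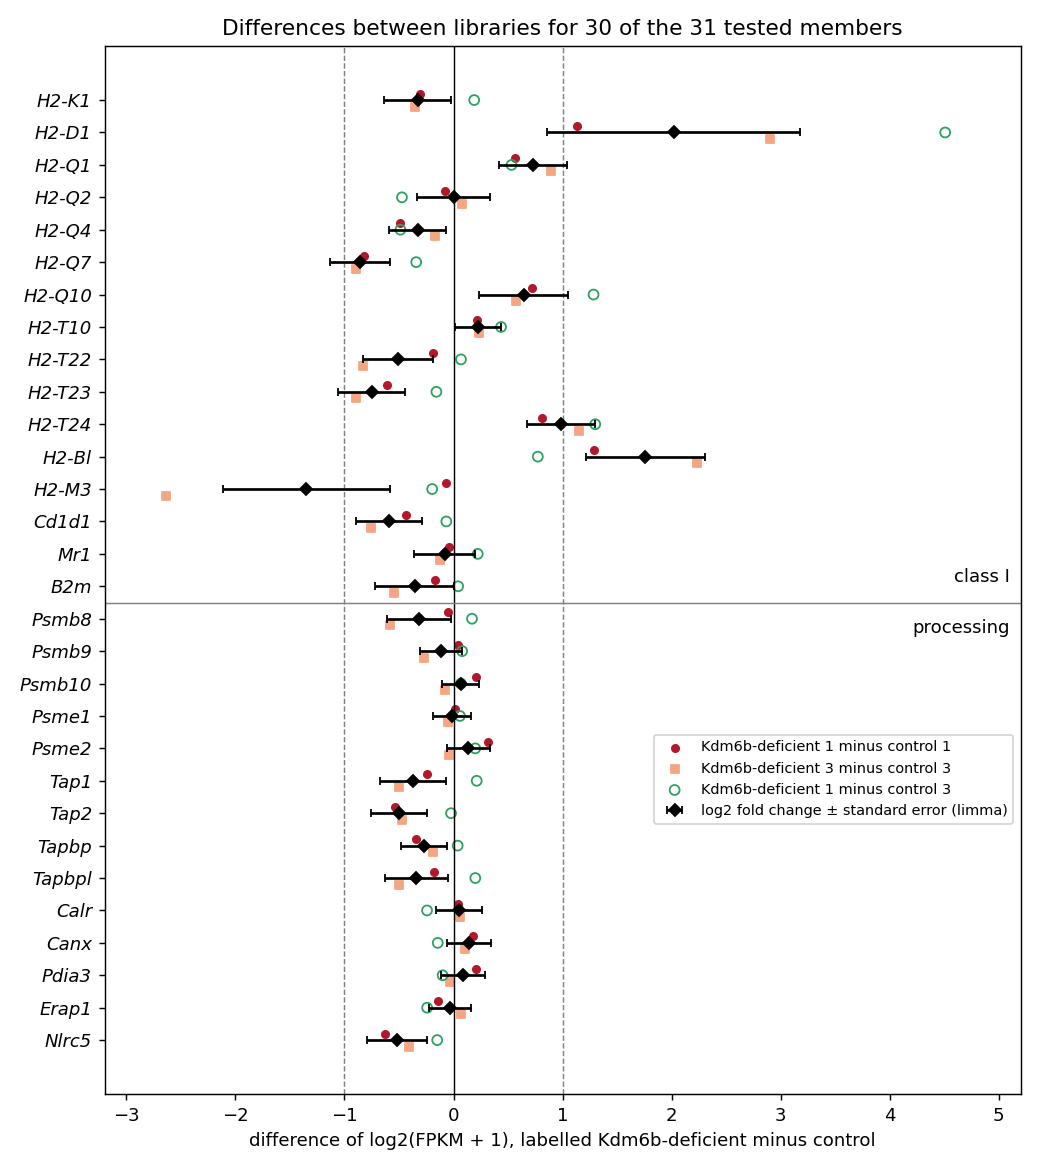
Differences of log2(FPKM + 1) for every tested gene other than *LOC547349*: black diamonds are the log2 fold change between the groups with its standard error, and the smaller points are differences between single libraries. Dashed lines mark −1 and 1. The open circles (replicate 1 labelled *Kdm6b*-deficient minus control replicate 3) lie nearer 0 than the diamonds for *B2m* (0.04) and *H2-T23* (−0.16).

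The rest of the pathway was read from lists of related genes. Of 16 constitutive proteasome genes, all tested, both libraries labelled *Kdm6b*-deficient exceeded both controls for 1 and lay below them for 4, with a median log2 fold change of −0.02. These shares over all genes tested were 18.4% and 18.6%. Of 15 tested cytosolic peptidases and endoplasmic reticulum factors, 5 were higher and 1 was lower (median 0.17). Of 23 regulators, the transcription factors of class I genes and members of interferon signalling, 1 was higher and 5 were lower (median −0.21), and 21 of the 23 log2 fold changes were negative on the deposited scale (49.9% of all genes tested). Of these 23 genes, 17 had overlapping groups (63.0% of genes tested). The lowest library was replicate 3 labelled *Kdm6b*-deficient for 17 of the 23 (32.5% of genes tested), as for 11 of 12 T cell markers. Between the replicates numbered 1, 14 of the 23 were negative, as were 5702 of the 12009 genes tested. Of 8 tested other class I genes, 2 were higher and 2 lower (median 0.41). No gene of these lists passed the limma test at an adjusted p of 0.05, and only *Fcgrt* went beyond a log2 fold change of 1.

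Among these genes, *Irf1*, a transcription factor that interferon induces and that acts on class I promoters, was at 150.2 and 128.61 FPKM in the controls and at 123.39 and 91.81 FPKM in the libraries labelled *Kdm6b*-deficient. *Ifng*, the cytokine that induces the immunoproteasome, was at 23.26 and 13.47 FPKM in the controls and at 51.16 and 4.53 FPKM in replicates 1 and 3 labelled *Kdm6b*-deficient, a wider spread within that group than between the groups. *Fcgrt*, the neonatal Fc receptor heavy chain, was at 5.07 and 19.6 FPKM in the controls and at 16.14 and 39.5 FPKM in the others, with overlap. *H2-T3*, which encodes the thymus leukaemia antigen that binds CD8αα, was at 2.85 and 11.68 FPKM in the controls and at 8.97 and 13.18 FPKM in the others. Both genes were lowest in control replicate 1, as the epithelial markers were in sum.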

How the data were processed

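The 4 libraries were sequenced on HiSeq instruments. The authors aligned the filtered reads to the mouse genome (mm10) by HISAT and Bowtie2, took gene levels from RSEM, and deposited FPKM to 2 decimals (Bowtie2 2.2.5 and RSEM 1.2.8 in the submitters' processing notes; annotation not given in the sources used here). Total reads are unknown, and steps between low FPKM put the relative depth at 0.868 to 1.07 of control replicate 1. Genes at 0 numbered 1625 to 4531 a library.

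Symbols and coordinates came from RefSeq GRCm38.p6 (18467 of 19339 identifiers). The 12009 genes that reached 1 FPKM in 2 or more libraries were tested on log2(FPKM + 1) with limma 3.58.1 (lmFit, eBayes with a trend, R 4.3.3), without further scaling or covariates, with Benjamini-Hochberg adjustment, and the model was checked on simulated data. Ratios were compared with the exact permutation test of scipy 1.17.1. Groups followed the labels, and p-values measure the spread between pools of mice. Shared 50-base windows came from GENCODE M21 transcripts. Alternatives covered the pseudocount, expression minimum, scaling, an epithelial covariate, a replicate block, the trend and leaving out each library. The genes and lists were chosen with earlier results of these data known, and all 33 genes are named by their roles. Of the other lists counts, medians and sums are given, with values of partner subunits, of the genes outside the gate and of pathway genes beyond a log2 fold change of 1. Marker genes beyond it are mostly not given singly. They were 19 of 24 epithelial markers, above 1 (6.2% of genes tested), and 1 of 12 T cell markers, below −1 (0.441%). *Irf1*, *Ifng*, *H2-T3*, *H2-Q8*, *H2-Q9*, *Lyz2*, *Cd79b*, *Reg3g*, *Gzma* and *Gzmb* were named after their values were seen.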

Additional observations from a re-analysis of the deposited data

How the results depend on the processing

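No class I or processing gene passed an adjusted p of 0.05 (limma) under another pseudocount, expression minimum or scaling, without the trend or without any 1 library, and the number of all genes that passed stayed at 0 there. Scaled to T cell genes, the median log2 fold change was 0.25 for class I and 0.30 for processing genes, beside 0.34 over all genes. With this scaling 11 of the 31 tested genes changed sign, while negative values among all 12009 genes tested fell from 5993 to 1773. With the epithelial score as a covariate, 52 of all genes passed, with 1 class I gene (*H2-D1*) among them, the processing median was 0.036, and 11 genes changed sign. On leaving out 1 library, the processing median ran from −0.18 (without replicate 1 labelled *Kdm6b*-deficient) to 0.013 (without replicate 3). The class I median was −0.33 with a minimum of 5 FPKM and 0.15 with the epithelial covariate, and ran from −0.21 (without control replicate 3) to −0.06 (without replicate 3 labelled *Kdm6b*-deficient). The number of class I genes beyond a log2 fold change of 1 in either direction, with *LOC547349* counted here and in these medians, ran from 4 to 6. With all libraries kept, the number of all genes above 1 ran from 370 (epithelial covariate) to 1382 (scaled to T cell genes). The number below −1 ran from 26 (scaled to T cell genes) to 197 (pseudocount 0.01). Leaving out control replicate 3 took *H2-D1* to 0.33, and leaving out control replicate 1 took it to 3.71.

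Both groups hold replicates numbered 1 and 3, and no source says that equal numbers mark pools made together. Deviations of same-numbered libraries from their group means correlated at r = 0.56 across 12009 genes, which are not independent replicates. When the replicate number was added as a block, a fit that leaves only 1 residual degree of freedom, 1019 of all genes passed. Among them, besides *LOC547349*, which entered only through the libraries where it is high, were the class I genes *H2-Q7* and *H2-T23* (lower) and *H2-D1*, *H2-Bl* and *H2-T24* (higher), and no processing gene. The cause of these shifts was not tested.

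Groups of 2 libraries and values without read counts limit the precision of every difference given.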

Other observations

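The MHC class II genes, which load peptides in endosomes and are not expressed by resting mouse T cells, were measured beside the class I genes. All 7 (*H2-Aa*, *H2-Ab1*, *H2-Eb1*, *Cd74*, *Ciita*, *H2-DMa* and *H2-DMb1*) were higher in both libraries labelled *Kdm6b*-deficient than in both controls, with a median log2 fold change of 0.67, beside 18.4% of all genes tested. Their summed level was 2276.54 and 1672.82 FPKM in controls 1 and 3 and 3836.17 and 2700.4 FPKM in the others. None passed the limma test at an adjusted p of 0.05 (lowest 0.755), and 2 of 7 had an unadjusted p under 0.05, against 5.35% of genes tested. The summed level of 10 myeloid and dendritic cell markers was 447.71 and 299.33 FPKM in the controls and 490.92 and 707.08 FPKM in the others, mostly from *Lyz2* (253.07 to 625.58 FPKM). That of 6 B cell markers was 31.81 to 38.57 FPKM, mostly from *Cd79b* (28.36 to 33.45 FPKM).

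Interferon response genes were measured beside the class I genes because interferon induces both. The summed level of 17 was 535.6 and 449.38 FPKM in the controls and 566.81 and 329.11 FPKM in replicates 1 and 3 labelled *Kdm6b*-deficient. The replicates thus lay on either side of the controls, as they did for *Ifng*, and the list's median log2 fold change was −0.11.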
